A study of Mus musculus with 54 samples.

Results

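The D cyclins, the E cyclins and the inhibitors of the kinases they activate were followed in mouse embryonic stem cells that differentiated with or without a deletion at the lncRNA Haunt. The group holds 10 genes chosen by name: the cyclin genes Ccnd1, Ccnd2, Ccnd3, Ccne1 and Ccne2, and the inhibitor genes Cdkn1a, Cdkn1b, Cdkn1c, Cdkn2a and Cdkn2b. All 10 were found among the 38363 entries of a retinoic acid RNA-seq table and among the 39055 entries used of a table of LIF withdrawal and sorted lineages. All 10 also passed the filter of the retinoic acid table, at least 1 FPKM in at least 2 libraries. FPKM, fragments per kilobase of transcript scaled to library depth, are values per length, so levels of different genes can be set side by side.

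The retinoic acid table holds 8 libraries of 46C cells, a 129/Ola embryonic stem cell line that carries GFP at Sox1. Cells with a 58 kb deletion at Haunt (58 kb KO, libraries i and j) and wild-type cells (WT, libraries 1 and 2) had lost LIF and the 2i inhibitors and received 2 µM retinoic acid for 4 or 2 days. Each of these 4 groups has 2 libraries, and the labels do not say whether i and j, or 1 and 2, were separate clones or cultures, so p-values measure the spread between libraries only. The second table gives 1 value per gene and column. Its NSC column is neural stem cells expanded from 46C cells with EGF and FGF-2 to passage 15, its NPC column is Sox1-GFP-positive neural progenitors sorted after 6 days in N2B27 medium, and its ME column is GFP-positive mesendoderm sorted from T-GFP cells (129/Ola) after 6 days without LIF. Its other columns are wild-type cells in serum at days 0, 2, 4 and 6 of LIF withdrawal. Days 0, 2 and 6 stand for 3, 2 and 3 libraries of differing lines, in that order (CJ7 and JF4 of 129S1/SVImJ, J1 of 129S4/SvJae) and are printed as the authors' values, while day 4 is 1 CJ7 library. These columns differ in line, strain and medium as well as in fate, which cannot be told apart.

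As background, D cyclins bind Cdk4 and Cdk6 and E cyclins bind Cdk2, and the active kinases phosphorylate the retinoblastoma family so that E2F factors can switch on genes of S phase. Inhibitors of the INK4 family (here p16 from Cdkn2a, and p15 from Cdkn2b) block Cdk4 and Cdk6, whereas the CIP/KIP family (p21 from Cdkn1a, p27 from Cdkn1b, p57 from Cdkn1c) binds cyclin-kinase complexes more broadly. Embryonic stem cells are known for a short G1 phase with high cyclin E activity and low cyclin D1, cyclin D2 and INK4 inhibitors. Ccnd3 was not low at day 0 here, at 82.2 FPKM. Cdkn1c is imprinted and expressed mainly from the maternal chromosome, next to the paternally expressed antisense RNA Kcnq1ot1.

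Steps between low FPKM values put the depth of the retinoic acid libraries at about 9.04 to 16.4 M reads, with KO-i at day 2 the shallowest, and that of the single libraries of the other table at 27.8 to 40.6 M reads. The Haunt transcript, listed as Gm15055, was at 3.08 and 0.447 FPKM in 58 kb KO and at 31.8 and 40.6 FPKM in WT at day 4, and at 1.13 and 0 FPKM in 58 kb KO and at 128 and 142 FPKM in WT at day 2. Replicates correlated across genes at Pearson r = 0.973 (58 kb KO) and 0.983 (WT) at day 4 and at r = 0.976 (58 kb KO) and 0.984 (WT) at day 2. Library WT-2 stood apart for Cdkn1c and its imprinted neighbours at both days, so values without it are given where a result rests on it. Among lineage markers, the NSC column had 1227 FPKM of Fabp7 and 0.391 FPKM of Pou5f1, the NPC column 21.8 FPKM of Sox1, the ME column 192 FPKM of T, and day 0 had 997 FPKM of Pou5f1.

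Promoter sequence was available for 6 of the 10 members (9 start sites, RefSeq, GRCm38.p6). The 4 windows shown belong to the 3 members that passed the threshold given below in WT between day 4 and day 2 of retinoic acid. Of these, only Cdkn2a also passed in 58 kb KO. Left out is the upstream Ccnd3 window (chr17:47504801-47505100). The listed Ccnd3 span, 94638 bases, is long enough to hold both Ccnd3 starts, and which of them was used was not measured. Each runs 5′ to 3′ from 250 bases before to 50 bases after a start site, and Cdkn2a has a start for the Arf transcript and, downstream, one for the p16 transcript. Capitals mark the GC box GGGCGG, the retinoid receptor half-site AGGTCA and the E2F strings TTTGGCGC, TTTCCCGC, TTTCGCGC and TTTGCCGC, all searched on both strands, with no overlap between kinds in these windows.
Ccnd3 downstream start, chr17:47593217-47593516 (+): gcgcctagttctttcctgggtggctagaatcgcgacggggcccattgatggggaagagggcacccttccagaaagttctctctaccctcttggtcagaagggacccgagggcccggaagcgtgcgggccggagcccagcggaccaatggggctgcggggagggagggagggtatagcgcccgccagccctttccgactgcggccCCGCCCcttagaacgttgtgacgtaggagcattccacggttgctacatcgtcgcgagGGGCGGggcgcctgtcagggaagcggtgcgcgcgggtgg
Cdkn2a upstream (Arf) start, chr4:89294570-89294869 (-): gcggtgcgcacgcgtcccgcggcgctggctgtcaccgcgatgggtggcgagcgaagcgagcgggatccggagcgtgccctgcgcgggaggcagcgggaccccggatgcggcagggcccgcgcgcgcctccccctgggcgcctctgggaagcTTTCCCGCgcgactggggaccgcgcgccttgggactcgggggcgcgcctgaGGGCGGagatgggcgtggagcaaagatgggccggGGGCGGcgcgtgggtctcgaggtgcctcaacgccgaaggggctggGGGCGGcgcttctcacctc
Cdkn2a downstream (p16) start, chr4:89282143-89282442 (-): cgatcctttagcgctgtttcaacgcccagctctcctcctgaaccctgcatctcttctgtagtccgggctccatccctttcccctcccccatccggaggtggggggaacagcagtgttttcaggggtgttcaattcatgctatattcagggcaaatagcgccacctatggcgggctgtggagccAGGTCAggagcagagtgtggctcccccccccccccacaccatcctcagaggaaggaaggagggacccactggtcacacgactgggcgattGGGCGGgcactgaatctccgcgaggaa
Cdkn2b start, chr4:89310983-89311282 (-): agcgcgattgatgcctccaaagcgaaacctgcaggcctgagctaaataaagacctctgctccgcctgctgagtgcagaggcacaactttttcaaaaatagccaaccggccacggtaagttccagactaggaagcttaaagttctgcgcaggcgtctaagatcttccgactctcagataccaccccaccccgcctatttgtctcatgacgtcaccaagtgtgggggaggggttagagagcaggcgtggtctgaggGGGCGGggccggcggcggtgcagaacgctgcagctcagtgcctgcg
A GC box was present in 8 of the 9 member windows, against 35.7% of all 32851 mouse promoter windows of this length. The Arf window held 3 GC boxes and the 1 E2F string found in any member window, while 2.26% of all windows held any of the 4 E2F strings. The half-site AGGTCA was in the p16 window and in the upstream Ccnd3 window, which is not shown, against 16.3% of all windows. CpG dinucleotides numbered 45 in the Arf window and 12 in the p16 window, 18 in the Cdkn2b window and 28 in the downstream Ccnd3 window, with a median of 7 over all windows. These matches describe letters, not binding.

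Between day 4 and day 2 of retinoic acid in WT, the D cyclin that passed was Ccnd3, which fell. The inhibitors that passed in WT were the INK4 genes Cdkn2a and Cdkn2b, which rose. In 58 kb KO only Cdkn2a passed. In WT, 3 of the 10 members passed the threshold (limma on log2(FPKM + 1), Benjamini-Hochberg adjusted p below 0.05 over 15705 genes), against 25.3% of all genes. In the WT comparison 2 members rose, with 14.4% of all genes higher, and 1 fell, with 10.9% lower. In 58 kb KO 1 of 10 passed, against 17.8% of all genes, and it rose, as did 10% of all genes, while 7.81% of all genes and no member fell. The median log2 fold change of the members was 0.17 in 58 kb KO and 0.27 in WT, against 0.04 in each genotype over all genes tested. These shares are near or below those of all genes. Where the days of a gene are said below to overlap or not, this is description only. In WT the days did not overlap for any member but Cdkn1c, and in 58 kb KO for Ccnd3, Cdkn1c and Cdkn2a only. The share of all genes whose days did not overlap was not counted. Library medians were higher at day 4 by 0.08 (58 kb KO) and 0.10 (WT) on the log2 scale. Centring them left 43.1% of calls higher in either genotype, against 56.2% (58 kb KO) and 56.9% (WT) uncentred.

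**Figure D1:**
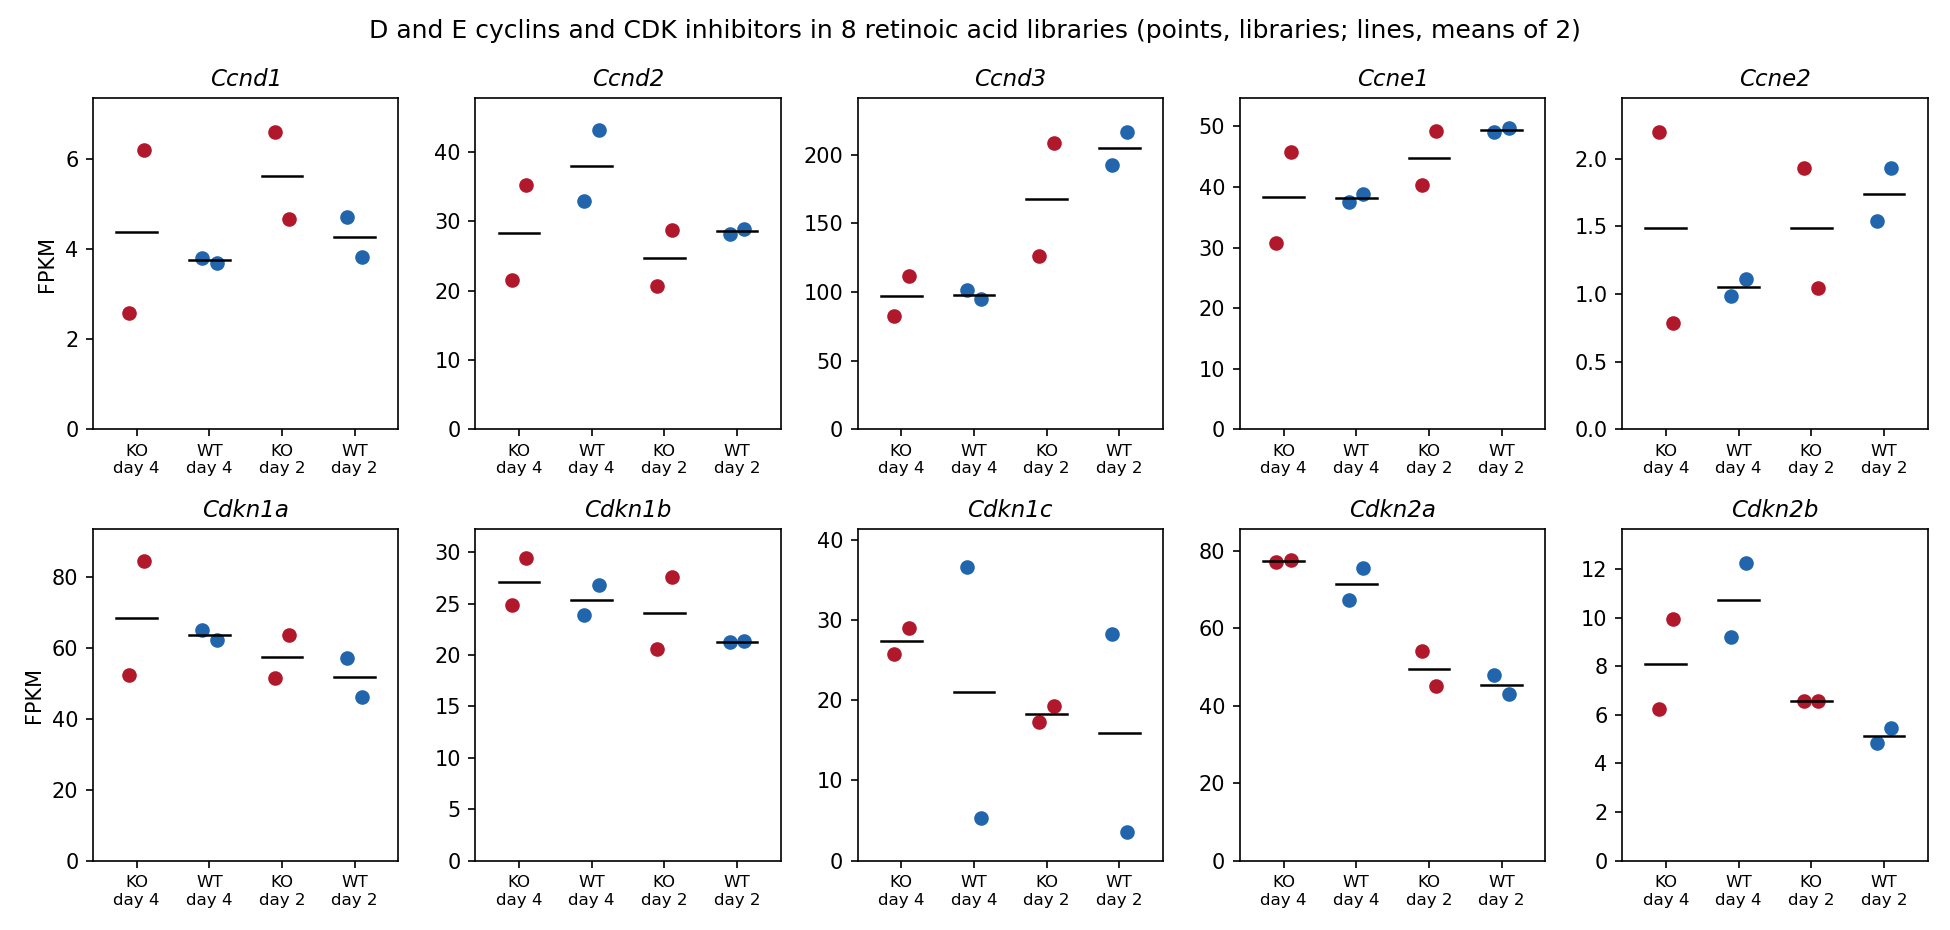
FPKM of the 10 members (vertical axes, linear, from 0) in 58 kb KO (red) and WT (blue) libraries at day 4 and day 2 of retinoic acid, with points for libraries and lines for the mean of 2. Ccnd3 is lower and Cdkn2a higher in all day 4 libraries than in any day 2 library, and 1 WT library is far below the others for Cdkn1c.

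Ccnd3, the D cyclin with the highest level in these cells (NM_001081635, mm9 chr17:47642000-47736637), was at 82.8 and 112 FPKM in 58 kb KO and at 102 and 94.6 FPKM in WT at day 4. At day 2 it was at 126 and 208 FPKM in 58 kb KO and at 193 and 217 FPKM in WT. All 4 libraries of day 4 were thus below all 4 of day 2. The log2 fold change was -1.05 ± 0.23 in WT (SE, 2 libraries a group, limma adjusted p = 0.0166), a 2.07-fold fall on this scale. In 58 kb KO it was -0.75 ± 0.23 and missed the threshold (limma adjusted p = 0.0642), and the 2 changes differed by 0.30 with a 95% interval of -0.47 to 1.07 (limma adjusted p = 0.95). The 58 kb KO value moved either way with the library left out. It was -1.11 without KO-i at day 2 (limma adjusted p = 0.0214) and -0.90 without KO-i at both days (0.0359), but -0.39 without KO-j at day 2 (0.253) and -0.54 without KO-i at day 4 (0.256). In WT the call was lost when any 1 of the 4 WT libraries was left out, with limma adjusted p of 0.0634 to 0.0976 at log2 fold changes of -1.14 to -0.97. The listed Ccnd3 span also covers Bysl, a ribosome biogenesis gene, and the unnamed transcript AK088937. Reads were not strand-specific, so any overlapping part cannot be told apart, and its share in the Ccnd3 values was not tested. Bysl was listed at 16.3 to 22.4 FPKM.

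Ccnd2 (NM_009829, mm9 chr6:127075727-127101066), the next most abundant D cyclin, was at 21.5 and 35.2 FPKM in 58 kb KO and at 32.9 and 43.1 FPKM in WT at day 4. It was at 20.6 and 28.8 FPKM in 58 kb KO and at 28.1 and 28.9 FPKM in WT at day 2. The WT groups did not overlap and the 58 kb KO groups did. Neither change passed (log2 fold change 0.17, limma adjusted p = 0.677, in 58 kb KO and 0.39, adjusted p = 0.295, in WT). Ccnd1 (NM_007631, mm9 chr7:152115836-152125830) was low in this setting, at 2.58 and 6.19 FPKM in 58 kb KO and 3.80 and 3.69 FPKM in WT at day 4, and at 6.60 and 4.65 FPKM in 58 kb KO and 4.71 and 3.82 FPKM in WT at day 2. Its spread between KO-i and KO-j exceeded any difference between groups.

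Ccne1 (NM_007633, mm9 chr7:38883003-38892509), which drives Cdk2 at entry into S phase, was at 30.8 and 45.8 FPKM in 58 kb KO and 37.5 and 38.8 FPKM in WT at day 4. It was at 40.3 and 49.2 FPKM in 58 kb KO and 49.1 and 49.7 FPKM in WT at day 2, so that the WT days did not overlap. Its log2 fold change was -0.24 ± 0.18 in 58 kb KO (limma adjusted p = 0.394) and -0.36 ± 0.18 in WT (adjusted p = 0.186). Ccne2 (NM_001037134, mm9 chr4:11118501-11131829), the second E cyclin, stayed between 0.785 and 2.20 FPKM over all 8 libraries, and neither change passed. Its listed span overlaps Ints8, an Integrator subunit gene, which fell in both genotypes (log2 fold change -0.63 in 58 kb KO, limma adjusted p = 0.0127, and -0.40 in WT, adjusted p = 0.0378).

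Cdkn2a (NM_001040654, mm9 chr4:88920377-88928096) was the member with the same change in both genotypes. It was at 77.2 and 77.5 FPKM in 58 kb KO and at 67.3 and 75.6 FPKM in WT at day 4, against 54.2 and 45.0 FPKM in 58 kb KO and 47.9 and 43.0 FPKM in WT at day 2. Every day 4 library was above every day 2 library. The log2 fold change was 0.64 ± 0.12 in 58 kb KO (SE, limma adjusted p = 0.0147) and 0.64 ± 0.12 in WT (adjusted p = 0.00905), a 1.56-fold rise in each. The p16 and Arf transcripts share exons but encode unrelated proteins. The listed span, 7720 bases, is too short to hold the start sites of both. Whether the value also takes in Arf reads is not stated, so which of them rose was not measured. In 58 kb KO the call was lost without KO-j at day 2 (0.51, limma adjusted p = 0.0723) or KO-i at day 4 (0.64, 0.0579), and in WT without WT-2 at day 2 (0.57, 0.0631) or at day 4 (0.56, 0.0675). The listed level of 43.0 to 77.5 FPKM exceeded that of the D cyclins Ccnd1 and Ccnd2 in all 8 libraries and was below that of Ccnd3 in all 8.

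Cdkn2b (NM_007670, mm9 chr4:88952198-88956941), the neighbouring INK4 gene, was at 6.24 and 9.95 FPKM in 58 kb KO and at 9.20 and 12.3 FPKM in WT at day 4. At day 2 it was at 6.55 FPKM in both 58 kb KO libraries and at 4.83 and 5.44 FPKM in WT. It rose in WT (log2 fold change 0.92 ± 0.22, SE, limma adjusted p = 0.0206), while in 58 kb KO the days overlapped (0.24 ± 0.22, adjusted p = 0.483). The difference between the 2 changes, -0.69 ± 0.31 with a 95% interval of -1.41 to 0.04, did not pass (limma adjusted p = 0.894). The other INK4 genes, Cdkn2c (p18) and Cdkn2d (p19), passed in neither genotype, with Cdkn2d between 19.4 and 29.3 FPKM. The WT call was lost without WT-1 at day 2 (limma adjusted p = 0.107), WT-2 at day 2 (0.0783) or WT-2 at day 4 (0.126), at log2 fold changes of 0.74 to 1.00.

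Cdkn1a (NM_001111099, mm9 chr17:29227931-29237667), a p53 target, was at 52.4 and 84.6 FPKM in 58 kb KO and 65.0 and 62.2 FPKM in WT at day 4, and at 51.4 and 63.5 FPKM in 58 kb KO and 57.1 and 46.1 FPKM in WT at day 2. Cdkn1b (NM_009875, mm9 chr6:134870419-134875543) was at 24.9 and 29.4 FPKM in 58 kb KO and 23.9 and 26.8 FPKM in WT at day 4, and at 20.6 and 27.6 FPKM in 58 kb KO and 21.3 and 21.4 FPKM in WT at day 2. No change passed for either gene, with log2 fold changes of 0.17 to 0.30. The WT days did not overlap for either gene, as for every member but Cdkn1c, and the 58 kb KO days did. The share of this pattern over all genes was not counted. The changes in 58 kb KO and WT differed by -0.09 for Cdkn1a and -0.06 for Cdkn1b (limma adjusted p = 0.996 for each). Cdkn1a had the higher level of the pair in all 8 libraries.

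**Figure D2:**
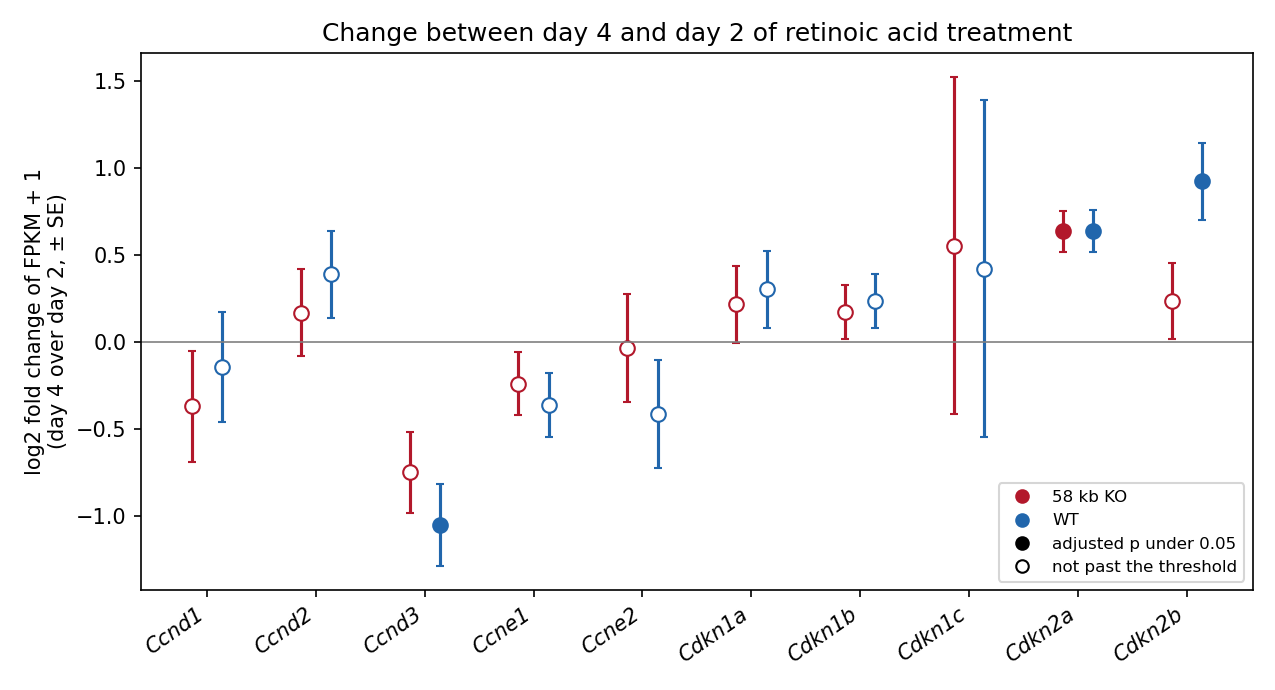
Log2 fold change of FPKM + 1 between day 4 and day 2 (vertical axis, ± SE) for each member in 58 kb KO (red, left of each pair) and WT (blue), with filled points past the adjusted threshold. Filled points are Cdkn2a at 0.64 in both genotypes, and Cdkn2b at 0.92 and Ccnd3 at -1.05 in WT, while Cdkn1c has an SE of 0.97.

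Cdkn1c (NM_001161624, mm9 chr7:150644244-150646955) differed more between the WT libraries than between any groups. It was at 25.8 and 29.0 FPKM in 58 kb KO and at 36.7 and 5.33 FPKM in WT at day 4, and at 17.3 and 19.3 FPKM in 58 kb KO and at 28.3 and 3.52 FPKM in WT at day 2. WT-2 had the low value at both days, at 18.4% and 18.2% of the median of the other 3 libraries of days 4 and 2. Comparing WT-2 in this way over all 15705 genes, 11 genes were at least 2-fold lower at both days on the log2(FPKM + 1) scale, and Cdkn1c ranked 2 from the lowest. Another 30 genes were at least 2-fold higher in WT-2 at both days. Of these, 12 lie on the X chromosome, a share that was not set against that of all genes. This list includes Gm15055 because 2 of the other 3 libraries are 58 kb KO, and other genes higher in WT than in 58 kb KO can enter it likewise. All 4 libraries of day 4, WT-2 among them, were higher than the library of the same name at day 2. The day 4 against day 2 change was 0.55 ± 0.97 in 58 kb KO and 0.42 ± 0.97 in WT (SE), and neither passed (limma adjusted p = 0.725 and 0.785). With libraries of the same name taken as pairs, so that the offset of WT-2 leaves the error, both passed (limma adjusted p = 0.0169 in 58 kb KO and 0.0265 in WT).

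The genes around Cdkn1c were then read in the same libraries, a step chosen after the low value of WT-2 was seen. Slc22a18, a transporter gene that is maternally expressed like Cdkn1c, was at 0.434 FPKM in WT-2 at day 4, 28.7% of the median of the other 3 libraries, and at 0.775 against 2.48 to 3.47 FPKM at day 2. Phlda2, a maternally expressed growth regulator of the placenta, was at 4.04 FPKM in WT-2 against 6.38 to 8.17 FPKM at day 4, and at 6.36 against 21.1 to 31.4 FPKM at day 2. Kcnq1ot1 went the other way, at 0.654 FPKM in WT-2 against 0.298 to 0.380 FPKM at day 4, and at 0.459 against 0.244 to 0.312 FPKM at day 2. These values are all under the filter of 1 FPKM. The Kcnq1ot1 span also lies within that listed for Kcnq1, and reads that were not strand-specific cannot tell overlapping parts apart. Nap1l4, just beyond Phlda2, was at 75.3 FPKM in WT-2 against 77.8 to 84.5 FPKM at day 4 and within the range of the others at day 2. Osbpl5, further out, was at 4.93 FPKM in WT-2 against 6.01 to 7.92 FPKM at day 4, and at 1.93 against 3.48 to 4.10 FPKM at day 2. Cdkn1c, Slc22a18 and Phlda2 were thus lowest and the paternal antisense RNA highest in WT-2 at both days. Low values in WT-2 extended to other genes listed for the imprinted Cdkn1c domain. Kcnq1, itself under 1 FPKM, Cd81 and Tssc4 were lowest there at both days. Ascl2 was lowest at day 2 and within the range of the others at day 4. What set WT-2 apart was not tested.

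**Figure D3:**
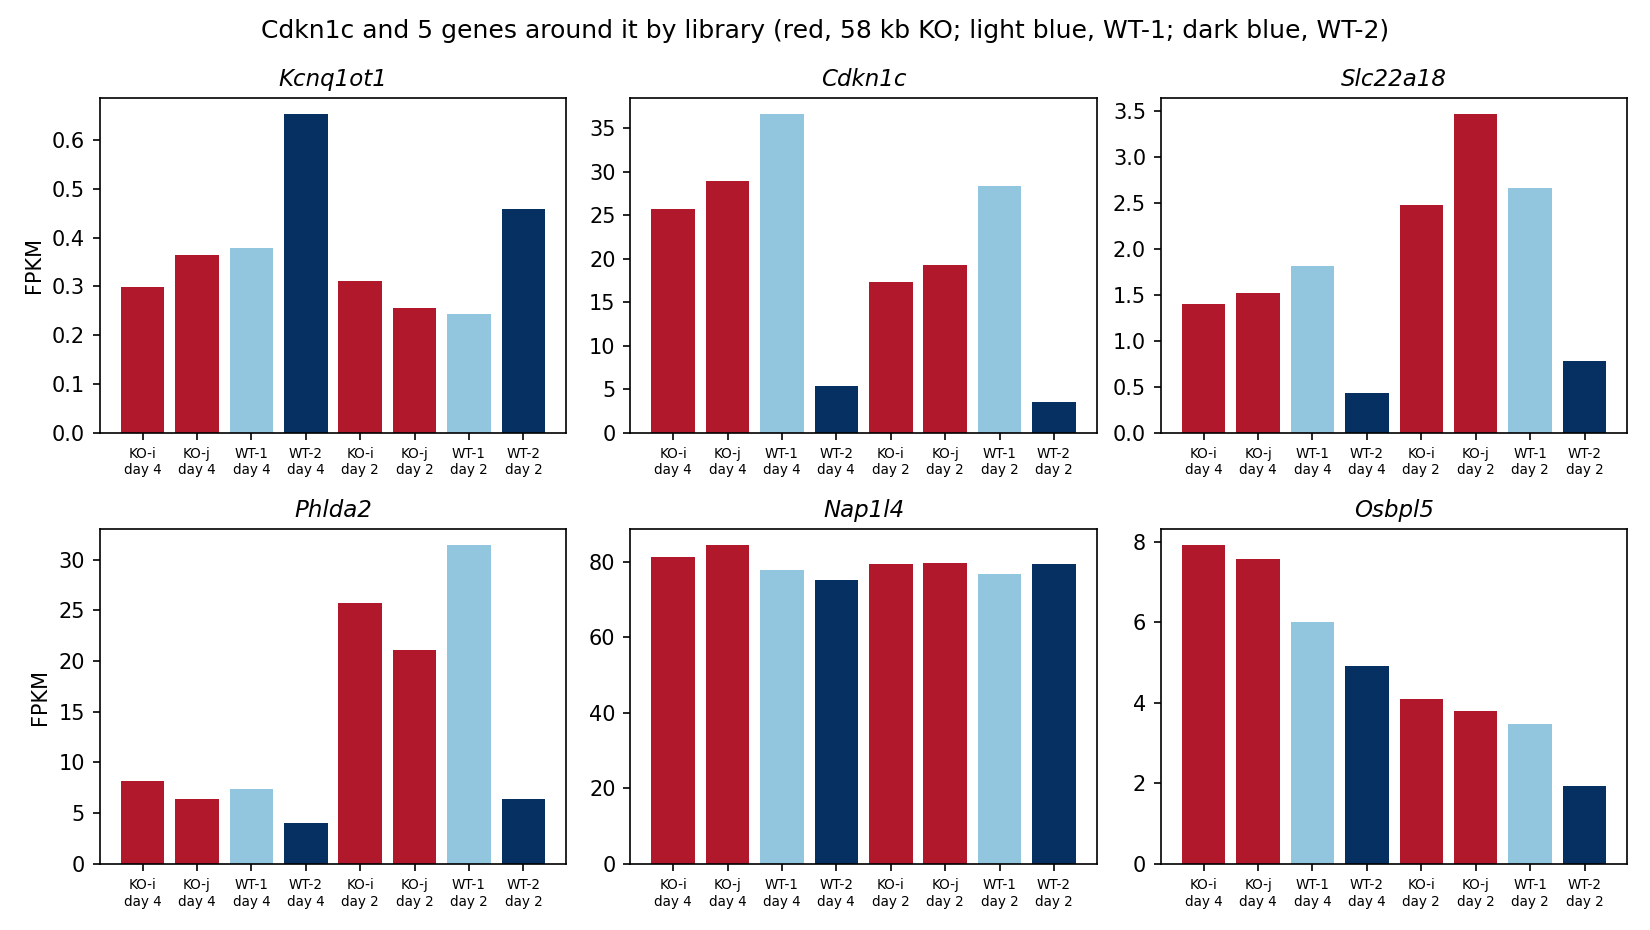
FPKM (vertical axes, linear, from 0) of Cdkn1c and 5 genes around it in each library, day 4 to the left of day 2, with 58 kb KO in red, WT-1 in light blue and WT-2 in dark blue. WT-2 is lowest for Cdkn1c, Slc22a18, Phlda2 and Osbpl5 and highest for Kcnq1ot1 at both days, while Nap1l4 lies between 75.3 and 84.5 FPKM throughout.

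The comparison of 58 kb KO with WT asks whether the deletion altered the members at a given day. No member passed at day 4, where 0 of all genes passed, that is 0%, or at day 2, where 4 genes or 0.0255% did. At an unadjusted p under 0.05, 2263 genes passed at day 4 and 803 at day 2, and again no member. Groups did not overlap for 1 member at day 4 (Cdkn2a, 46.6% of all genes) and for 1 at day 2 (Cdkn2b, 37% of all genes). The largest differences in size were those of Cdkn1c, 0.88 ± 0.97 at day 4 and 0.75 ± 0.97 at day 2, and they took the opposite sign without WT-2, at -0.41 and -0.60. For Ccnd2 the log2 difference was -0.44 at day 4 (95% interval -1.02 to 0.15) and -0.22 at day 2 (-0.80 to 0.37), and leaving out 1 library moved it to between -0.78 and -0.10 at day 4 and between -0.45 and 0.013 at day 2, the upper ends without KO-i and the lower ends without KO-j. For Ccnd3 it was -0.03 at day 4 (-0.57 to 0.52) and -0.33 at day 2 (-0.88 to 0.22). For Cdkn2b it was -0.39 at day 4 (-0.90 to 0.13) and 0.30 at day 2 (-0.21 to 0.81), and the day 4 value was -0.087 without KO-i and -0.68 without KO-j. Chromosome 6, which holds Ccnd2, Cdkn1b and Haunt itself, had a median shift of 0.15 and 0.06 in KO-j and KO-i at day 4 and of 0.20 and 0.09 at day 2, relative to WT. With such shifts subtracted, the Cdkn1b difference at day 4 was -0.01 in place of 0.09. No member and 0% of all genes passed for the difference between genotypes in the day 4 against day 2 change, where 873 genes had an unadjusted p under 0.05.

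Beside these changes, lineage markers moved strongly between the days, and their part in the members' changes was not tested. In a bulk library fewer cells of a type and less RNA per cell cannot be told apart. Pluripotency genes summed to 149 to 230 FPKM in 58 kb KO and 191 to 213 FPKM in WT at day 4, against 354 to 731 FPKM in 58 kb KO and 722 to 945 FPKM in WT at day 2, and 6 (58 kb KO) and 9 (WT) of 11 tested fell. Extraembryonic endoderm markers summed to 1002 to 1073 FPKM in 58 kb KO and 1776 to 1907 FPKM in WT at day 4, against 214 to 287 FPKM in 58 kb KO and 237 to 268 FPKM in WT at day 2. Of these markers 7 (58 kb KO) and 10 (WT) of 11 rose, and Col4a1, Sparc and Gata4 had the smallest p-values in both genotypes. Trophoblast and simple-epithelium markers summed to 78.8 to 123 FPKM in 58 kb KO and 201 to 320 FPKM in WT at day 4, against 33.9 to 37.7 FPKM in 58 kb KO and 32.6 to 38.0 FPKM in WT at day 2. Of 6 tested trophoblast markers 3 rose and 2 fell in each genotype. Of 8 neural markers 4 rose and 2 fell in 58 kb KO and 3 rose and 3 fell in WT, and of 6 mesendoderm markers 2 rose and 1 fell in 58 kb KO and 4 rose and 1 fell in WT. Of 4 primed epiblast markers 1 rose and 2 fell in 58 kb KO and 2 fell in WT, and of 5 fibroblast markers 3 rose in 58 kb KO and 2 rose and 1 fell in WT. In KO-i at day 2, the pluripotency sum was the lowest of that day, as was Ccnd3.

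Among other cell cycle genes, some of S phase and mitosis fell and none of those rose in either genotype. Of the kinases that D and E cyclins activate none fell. A link of these changes to the members was not tested. Beside the counts that follow, 7.81% (58 kb KO) and 10.9% (WT) of all genes fell. Of 13 S phase genes, 5 fell in 58 kb KO and 4 in WT, with a median log2 fold change of -0.31 in 58 kb KO and -0.25 in WT, where 1 of the 13 had a positive value. Pcna, the replication clamp, was at 93.1 and 103 FPKM in 58 kb KO and 113 and 110 FPKM in WT at day 4, against 141 and 153 FPKM in 58 kb KO and 151 and 174 FPKM in WT at day 2. Of 9 mitotic genes tested, 6 fell in 58 kb KO and 5 in WT (medians -0.53 and -0.48), among them Top2a and Aurka. Of the 5 A and B cyclins and Cdk1 that were tested, 3 fell in each genotype (medians -0.58 and -0.43), with Cdk1 at -0.57 in 58 kb KO and -0.43 in WT. Depending on the alternative, these 3 lists held 0 to 8 falling genes, and their medians stayed between -0.68 and -0.22. Of Cdk2, Cdk4 and Cdk6, Cdk4 rose in WT (0.42 ± 0.13, limma adjusted p = 0.0342), and none passed in 58 kb KO. None of the 3 pocket protein genes passed, and of 10 E2F and Dp genes, the repressor E2f6 rose in both (0.41 in 58 kb KO and 0.50 in WT) and E2f8 fell in WT.

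Among genes that act on the members, 4 of 9 turnover and activation genes passed in 58 kb KO and 2 in WT, and 2 of 10 known regulators passed in 58 kb KO and 4 in WT, against 17.8% (58 kb KO) and 25.3% (WT) of all genes. Of the 9 genes for turnover and activation of cyclins and kinases, the phosphatase genes Cdc25b and Cdc25c fell in both genotypes, Cks2 fell in 58 kb KO and Fbxo31, whose product targets cyclin D1, rose there. In the p53 list 1 of 13 genes passed in each genotype, Sesn2, which rose by 0.79 in 58 kb KO and 1.00 in WT, so Mdm2 and the other targets read did not pass. Among 10 regulators known to act on members, Myc and Mycn rose in both, Mycn by 0.93 in 58 kb KO and 1.64 in WT, and Foxo1 rose and Cebpa fell in WT. Of the genes next to other members, 2 of 9 tested fell in 58 kb KO and 3 in WT, and Fgf4, beside Ccnd1, fell most (-1.51 in 58 kb KO and -2.01 in WT), whereas Ccnd1 did not pass. In the Cdkn1c domain Osbpl5 alone passed of 7 tested, and it rose in both genotypes.

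**Figure D4:**
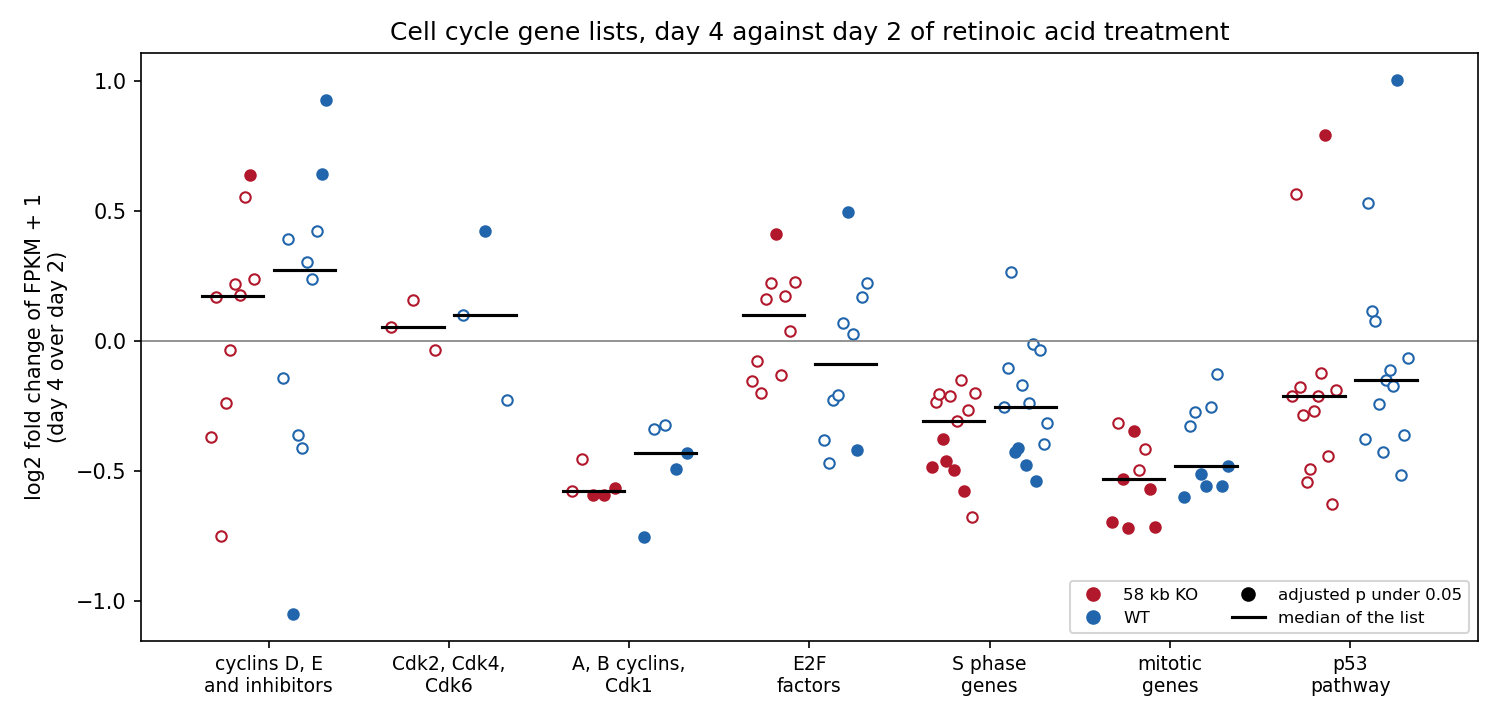
Log2 fold change of FPKM + 1 between day 4 and day 2 (vertical axis) for the tested genes of 7 lists in 58 kb KO (red, left) and WT (blue), with filled points past the adjusted threshold and black lines for list medians. The 10 members spread from -1.05 to 0.92, while the 9 mitotic genes and the 5 A and B cyclins with Cdk1 all lie below 0 in both genotypes.

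In the lineage table the D and E cyclins did not part by family. Ccnd3 and Ccne1 were highest at day 0, while Ccnd1, Ccnd2 and Ccne2 were lowest there. No test was possible with 1 value per column, so a member is counted when its log2(FPKM + 1) difference is at least 1. In neural stem cells against day 0, 8 of 10 members were past this difference (37% of all 14189 genes with at least 1 FPKM in a column), 5 higher and 3 lower. In neural progenitors against day 0 there were 6 (26.3% of all), 4 higher and 2 lower. Between neural stem cells and neural progenitors there were 7 (23.2% of all), and between mesendoderm and day 6 of LIF withdrawal there were 3 (9.46% of all). Over LIF withdrawal there was 1 at day 2 (9.65% of all), there were 2 at day 4 (15.2%) and 6 at day 6 (18.3%), each against day 0.

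Ccnd2 spanned the widest range of the cyclins, with 234 FPKM in neural stem cells, 68.8 in neural progenitors and 7.43 in mesendoderm, and 2.31, 4.20, 4.87 and 11.2 FPKM at days 0, 2, 4 and 6 of LIF withdrawal. Ccnd1 followed the same order in the neural columns, with 107 FPKM in neural stem cells and 45.6 in neural progenitors, against 18.8 FPKM at day 0. Elsewhere it stayed between 18.8 and 28.1 FPKM. Ccnd3 was highest at day 0, with 82.2, 17.1, 22.3 and 46.7 FPKM at days 0, 2, 4 and 6, and was at 18.6 FPKM in neural stem cells, 43.1 in neural progenitors and 46.1 in mesendoderm. The D cyclin with the highest value was Ccnd3 at days 0 and 6 and in mesendoderm, Ccnd3 by a small margin over Ccnd1 (21.9 FPKM) at day 4, Ccnd1 at day 2 and Ccnd2 in both neural columns. Under retinoic acid it was Ccnd3 in all 8 libraries.

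Ccne1 was lower at each later day of LIF withdrawal, with 147, 98.5, 67.2 and 37.4 FPKM at days 0, 2, 4 and 6. It was at 30.0 FPKM in neural stem cells, 48.4 in neural progenitors and 77.0 in mesendoderm, the last a log2 difference of 1.02 above day 6. Ccne2 was lowest at day 0, with 4.02, 7.20, 7.39 and 7.83 FPKM at days 0, 2, 4 and 6, and highest in mesendoderm at 11.3 FPKM. It passed the 2-fold difference in no comparison made.

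Among the CIP/KIP inhibitors, Cdkn1a was at 67.7 FPKM in neural stem cells, 24.7 in neural progenitors and 19.2 in mesendoderm, and at 9.56, 19.3, 13.9 and 33.3 FPKM at days 0, 2, 4 and 6. Cdkn1b was at 30.3 FPKM in neural stem cells and 15.2 in neural progenitors, and between 6.21 and 8.41 FPKM in all other columns. Cdkn1c was at 4.95 FPKM in neural stem cells, 158 in neural progenitors and 119 in mesendoderm, and at 23.4, 38.7, 18.2 and 101 FPKM at days 0, 2, 4 and 6. It was thus 31.8-fold higher in its highest column, neural progenitors, than in its lowest, neural stem cells. Phlda2 and Slc22a18 were listed at 0 in neural stem cells. Phlda2 was at 1.66 FPKM in neural progenitors and at 113 FPKM in mesendoderm, so it did not share the high Cdkn1c value of neural progenitors. Kcnq1ot1 was at 0.714 FPKM in neural stem cells, 2.22 in neural progenitors and 1.35 in mesendoderm.

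Of the INK4 genes, Cdkn2a was at 43.8 FPKM in neural stem cells, 14.7 in neural progenitors and 15.0 in mesendoderm, and at 11.0, 13.3, 8.80 and 37.3 FPKM at days 0, 2, 4 and 6. Cdkn2b was at 4.43 FPKM in neural stem cells, 0.276 in neural progenitors and 0.0854 in mesendoderm, and at 2.12, 1.89, 0.759 and 7.49 FPKM at days 0, 2, 4 and 6. Both had higher values at day 6 and in neural stem cells than in any other column. Cdkn2b was lowest in mesendoderm and neural progenitors, whereas Cdkn2a was lowest at day 4. Cdkn2c, the p18 gene of the same family, was at 16.7 FPKM in neural stem cells and 0.972 in neural progenitors, and at most 0.243 FPKM elsewhere. At day 6, 5 members were higher and 1 lower than at day 0. Trophoblast and simple-epithelium markers then summed to 3239 FPKM, against 295 FPKM at day 0. Most of it was Krt8 (1619 FPKM) and Krt18 (1271 FPKM), while Tfap2c was at 8.69 FPKM, against 39.3 FPKM. Sums also rose for markers of fibroblasts (69.1 against 18.4 FPKM), mesendoderm (143 against 5.62), extraembryonic endoderm (360 against 91.0) and neural cells (106 against 71.7). They fell for pluripotency (311 against 1892 FPKM) and primed epiblast (78.7 against 154). Their part in the day 6 values was not tested.

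**Figure D5:**
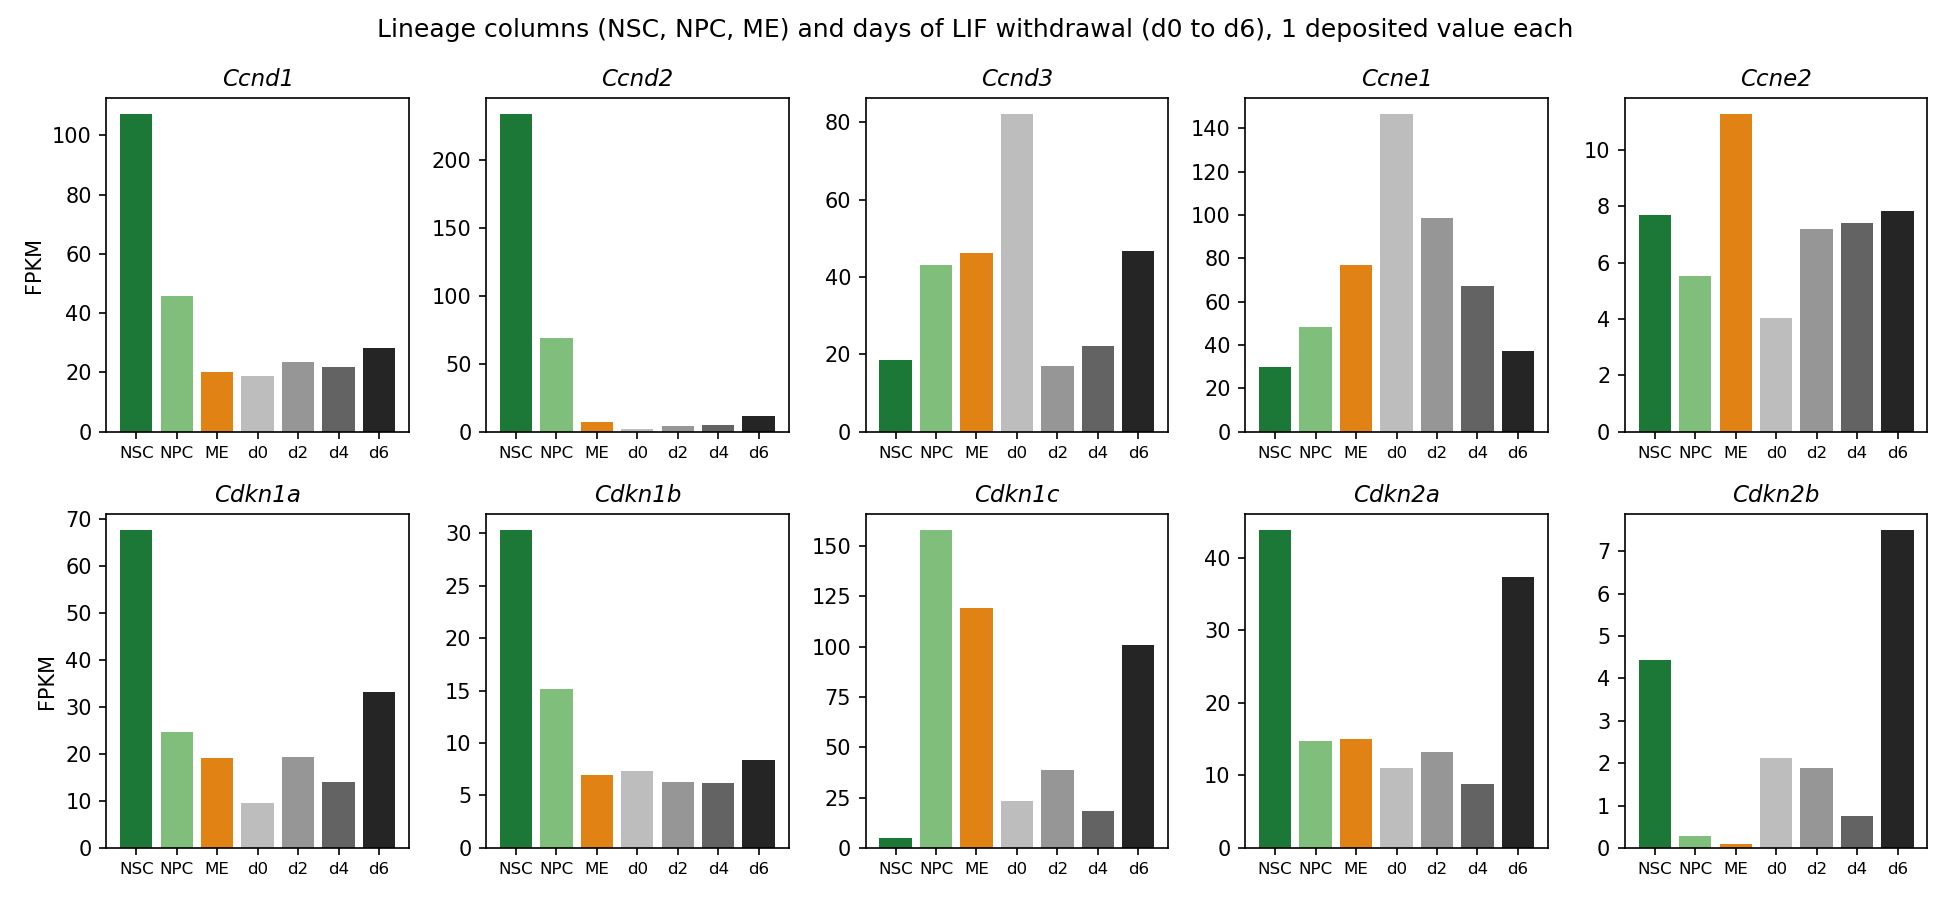
FPKM (vertical axes, linear, from 0) of the 10 members in neural stem cells (NSC), neural progenitors (NPC), mesendoderm (ME) and days 0, 2, 4 and 6 of LIF withdrawal (d0 to d6), with 1 deposited value per bar. Ccnd1, Ccnd2, Cdkn1a, Cdkn1b and Cdkn2a are highest in neural stem cells, Ccnd3 and Ccne1 at day 0, Ccne2 in mesendoderm, Cdkn1c in neural progenitors and Cdkn2b at day 6.

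Of the proliferation lists in the same table, a minority of genes differed. Against day 0, 3 of 13 S phase genes were at least 2-fold lower in neural stem cells (median -0.66) and 1 in neural progenitors (median -0.30), and 2 and 1 of 10 mitotic genes were lower. The mitotic list had a median of -0.46 in neural stem cells and -0.28 in neural progenitors against day 0. Mki67, a marker of cycling cells in this list, went against these medians. It was at 202 FPKM in neural stem cells, 137 in neural progenitors and 110 in mesendoderm, against 104 FPKM at day 0. Cdk6 was at 0.117 FPKM in neural stem cells, against 5.13 FPKM at day 0, while Cdk4 was at 110 FPKM in neural stem cells, against 96.8 FPKM at day 0. Neural stem cells thus had the highest Ccnd1 and Ccnd2 values together with Cdk4 and almost no Cdk6 transcript.

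Genes with the profile most like a member were found by Pearson correlation of log2(FPKM + 1) among 9177 named genes across the 8 retinoic acid libraries, and 7608 across the 7 columns of the other table. With so few points that share library, depth and line, these are descriptions. For Ccnd3 they were Laptm5 (r = 0.996) and Amt (r = 0.992) under retinoic acid, and Scpep1 (r = 0.961) in the other table. For Cdkn2a they were Ptprj (r = 0.994) and Tpbg (r = 0.992) under retinoic acid, and Tgfbi (r = 0.987) in the other table. For Cdkn2b they were Tmem55a (r = 0.980) and Zwint (r = 0.974). For Cdkn1c, whose profile carried the low WT-2 values, they were Socs6 (r = 0.979) and 6430526N21Rik (r = 0.960) under retinoic acid, and Nsa2 (r = 0.966) in the other table. For Ccnd2 they were Lrp1 (r = 0.981) under retinoic acid and Galnt2 (r = 0.998) in the other table. No gene among these pairs was named for the same member in both tables.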

How the data were processed

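RNA-seq values of 10 named genes were read from the 2 tables the authors deposited, which cover 20 of the 54 samples of the series; the others are not analysed here. The deposited values are FPKM (the files name no unit; it follows from the values) at mm9 loci. TopHat2 2.0.11, Bowtie 1.0.0, MACS 1.4.2 and CASAVA appear, with no roles, in the submitters' processing notes. Per the labels' protocols the retinoic acid libraries were not strand-specific and the others were. Values of Ccnd3, Ccne2, Cdkn1a, Cdkn1c and Cdkn2a carry over 6 significant digits in some libraries, as sums of several estimates would.

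For the retinoic acid table log2(FPKM + 1) was fitted for every gene reaching 1 FPKM in 2 or more of the 8 libraries with limma 3.58.1 (R 4.3.3), with an intensity trend, 4 groups and 5 contrasts. P-values are two-sided and Benjamini-Hochberg adjusted over 15705 genes. The fit was tested on simulated data. With 2 libraries a group the fit has 4 residual and 3.50 prior degrees of freedom. For the other table differences of log2(FPKM + 1) are given with no test. Starts in the tables count from 0 and are printed plus 1. Depth was estimated from the linear steps of low values.

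The members and the 19 other lists were chosen with earlier results of these data known. Named genes are all members, from each list at most 3 passing genes per direction, the 2 most similar genes per member, and neighbours. Values of Mki67, Cdk6, Cdk4, Fabp7, Sox1, T, Pou5f1, Mdm2, Bysl, Cdkn2c and Cdkn2d, and those of the Cdkn1c domain by library, were chosen after they were seen. Alternatives covered the pseudocount, filters, scaling, the trend, the replicate block, and leaving out each library. Same-named libraries of the 2 days had correlated deviations of 0.260 (58 kb KO) and 0.085 (WT), with 2 pairs each and no label that gives the pairing, so the names were not treated as pairs.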

Additional observations from a re-analysis of the deposited data

How the results depend on the processing

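Of 636 member values under alternatives, 581 stayed within their call and direction, 19 lost and 8 gained a call, and 28 changed sign. The Cdkn2a call held in 15 of 20 alternatives in 58 kb KO (limma adjusted p 0.0124 to 0.0723) and in 17 of 20 in WT (0.00811 to 0.236), and in WT Cdkn2b held in 15 and Ccnd3 in 14. Leaving out WT-2 and KO-i at both days was added after the data were seen. Without WT-2, 0 genes and 0 members passed in WT and 419 genes and 0 members in 58 kb KO between the days, and 0 genes for 58 kb KO against WT at day 2. Without KO-i, 736 genes passed in 58 kb KO between the days, and 1 gene for 58 kb KO against WT at each day. With no filter on low values, 1 member passed in WT and 1596 genes in 58 kb KO between the days, 1 gene for 58 kb KO against WT at day 4, 7 at day 2 and 5 for the difference between genotypes. With the 4 libraries of a comparison alone, 396 genes and 0 members passed in 58 kb KO, and 0 genes for 58 kb KO against WT at day 2. No intensity trend gave 1 gene for the difference between genotypes. A pseudocount of 0.1 gave 1 gene for 58 kb KO against WT at day 4, and 4 members at day 4 and 2 at day 2 of LIF withdrawal. Leaving out each library gave 980 to 2159 genes and 0 to 2 members in 58 kb KO, 1494 to 4273 genes and 0 to 3 members in WT, 0 to 7 genes for 58 kb KO against WT at day 4, 0 to 5 at day 2, and 0 to 1 for the difference. The cause of these shifts was not tested.

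Changes of sign touched uncalled members. In 58 kb KO between the days, leaving out each library gave log2 fold changes of -0.87 to 0.13 for Ccnd1, -0.17 to 0.51 for Ccnd2, -0.517 to 0.040 for Ccne1, -0.46 to 0.39 for Ccne2, -0.12 to 0.56 for Cdkn1a, -0.027 to 0.377 for Cdkn1b and -0.061 to 0.536 for Cdkn2b, and in WT -0.93 to 1.77 for Cdkn1c. For 58 kb KO against WT at day 4 they were -0.24 to 0.18 for Ccnd3, -0.022 to 0.209 for Cdkn1b and -0.41 to 2.16 for Cdkn1c, and at day 2 -0.45 to 0.013 for Ccnd2, -0.69 to 0.027 for Ccnd3, -0.046 to 0.36 for Cdkn1b and -0.60 to 2.10 for Cdkn1c. The difference between genotypes for Ccnd3 was -0.056 to 0.66. Without KO-i at both days, Ccnd1 between the days was 0.35, Ccnd3 against WT was 0.18 at day 4 and 0.027 at day 2, and Ccnd2 at day 2 was 0.013. Without WT-2, Cdkn1c against WT was -0.41 at day 4 and -0.60 at day 2. Quantile scaling gave 0.026 for Ccne2 in 58 kb KO, and subtracting chromosome shifts gave -0.0082 for Cdkn1b against WT at day 4. For 58 kb KO against WT, 7 of 10 members changed sign under at least 1 alternative at each day, and 9 of 10 did for the difference between genotypes. The 28 sign changes counted above cover only 5 members for 58 kb KO against WT and 2 for the difference.

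With the replicate block, taking same-named libraries of the days as pairs, 3 members passed in 58 kb KO (Ccnd3 at limma adjusted p = 0.0107, Cdkn1c at 0.0169, and Cdkn2a) and 5 in WT (Ccnd3, Cdkn2a and Cdkn2b with Ccne1 at 0.0406 and Cdkn1c at 0.0265). The labels do not say that a name marks the same cells at both days. Some features did recur by name, such as the chromosome 1 shift of KO-i (0.29 at day 4 and 0.31 at day 2) and the low Cdkn1c of WT-2. Depth of 9.04 to 16.4 M reads limits the low members, Ccne2 foremost.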
